A study of Chelonus formosanus with 6 samples.

Results

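The circadian clock genes of the parasitoid wasp Chelonus formosanus were followed in 5 assembled transcripts (unigenes) of the head transcriptome. They were chosen by their descriptions, which name the period circadian protein, cryptochrome, timeless, Clock (circadian locomoter output cycles protein kaput), cycle, vrille, clockwork orange or PAR domain protein 1. Of 41986 unigenes, 10 matched, and 5 whose best hit came from a vertebrate were dropped. The 5 that were kept are 1 of Clock, 2 of period, 1 of cryptochrome-1 and 1 timeless homolog.

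The study sequenced poly(A) RNA of wasp heads in 6 libraries, 3 of females and 3 of males, all labelled day 1. Neither a genotype nor a treatment is given for either sex. The labels do not say how many heads went into a library, nor at what hour of the day the heads were taken, and replicates may be technical, so p-values measure the spread between these libraries only.

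In insects, the transcription factors Clock and cycle pair up and switch on period, vrille, Pdp1 (PAR domain protein 1) and clockwork orange, and the period protein returns to the nucleus and blocks Clock and cycle. In the fruit fly, timeless is the partner of period and cryptochrome resets the clock by light, whereas the honey bee and the jewel wasp Nasonia carry a mammalian-type cryptochrome that represses Clock and cycle. The RNA of period and vrille in fly heads rises and falls over the day, while that of cycle is steady.

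The rule found the activator Clock and the repressor period, but not the whole loop. No unigene kept was described as cycle, vrille, clockwork orange or PAR domain protein 1. Other columns of the table filled 3 of these places, and these unigenes were added after their values had been seen. The first, TRINITY_DN25257_c3_g1, is described as aryl hydrocarbon receptor nuclear translocator-like protein 1 and carries the gene name cyc. The second, TRINITY_DN26466_c3_g19, is described as RNA polymerase II degradation factor 1, but its KEGG orthology K12114 is vrille, it holds a bZIP domain and its KEGG pathway is the fly circadian rhythm. The third, TRINITY_DN25608_c1_g8, is described as thyrotroph embryonic factor, a vertebrate relative of Pdp1 in the PAR-bZIP family, and has the same KEGG pathway. Its gene name is HLF and its KEGG orthology K09057 is hepatic leukemia factor, so that it is not shown to be Pdp1.

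The annotations of the 5 unigenes differ in how well they carry the name. Clock (TRINITY_DN25706_c0_g5, 2955 bases) holds a PAS domain, has the KEGG orthology K02223 and matches fruit fly Clk. The longer period unigene (TRINITY_DN26031_c1_g1, 2584 bases, 9 assembled transcripts) holds the period C-terminal domain, has the KEGG orthology K02633 and matches cockroach period. The shorter period unigene (TRINITY_DN25768_c1_g1, 661 bases) has the description and no domain, gene name or KEGG entry. Cryptochrome-1 (TRINITY_DN25569_c0_g1, 2360 bases) holds the FAD-binding domain of the photolyase and cryptochrome family, and its protein hit is mouse Cry1. The timeless homolog (TRINITY_DN19248_c0_g1, 1797 bases) holds the timeless C-terminal domain, and its protein hit is human TIMELESS, a protein known in mammals from the DNA replication fork, so that it is not shown to be the fly clock gene of that name. The table does not say which of these unigenes are fragments of one gene.

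Libraries held 17937390 to 19517887 counts. Levels between genes are given in TPM, a unit scaled by transcript length, and levels between sexes in CPM, read counts scaled by library size and TMM factors, which ran between 0.968 and 1.03. The log2 differences are female minus male from edgeR's quasi-likelihood test, with Benjamini-Hochberg adjustment over all unigenes tested. In bulk heads, fewer cells of a type and less RNA per cell cannot be told apart. As a check of the tissue, 14 photoreceptor unigenes (opsins, arrestins and other parts of the eye) together reached 11713 to 12606 TPM in females and 10982 to 12035 TPM in males. Of the 13 tested, 1 was higher in females by edgeR and 0 lower, beside 1.69% higher and 1.11% lower of all unigenes tested.

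The clock genes spanned a wide range of levels. The longer period unigene was the highest of the 5, with a mean of 76.6 ± 14.7 TPM (SD, n = 6 libraries), above 92.2% of the unigenes tested. Clock followed at 8.65 ± 0.666 TPM, a level 8.86 times lower, and the ranges of these 2 unigenes did not overlap. The size of this gap depends on the unit. Mean CPM was 92.9 in females and 92.2 in males for period, and 22.4 and 22.3 for Clock, which is the longer unigene. Period joins 9 assembled transcripts and Clock 1, and how the TPM weighed their lengths is not given. The shorter period unigene had 5.62 ± 2.09 TPM and cryptochrome-1 4.12 ± 1.18 TPM. Clock was above the shorter period unigene in 5 of 6 libraries, and the shorter period unigene above cryptochrome-1 in 6 of 6, but in both of these pairs the ranges overlapped. The timeless homolog was lowest, at 1.54 ± 0.429 TPM, below cryptochrome-1 in every library and without overlap. The 3 unigenes from outside the rule were all above Clock on average, with 199 ± 12.3 TPM for the PAR-bZIP factor, 54.8 ± 4.87 TPM for the cycle homolog and 16.6 ± 6.34 TPM for vrille. The activator cycle was thus measured at several times the level of its partner Clock, in all 6 libraries.

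**Figure D1:**
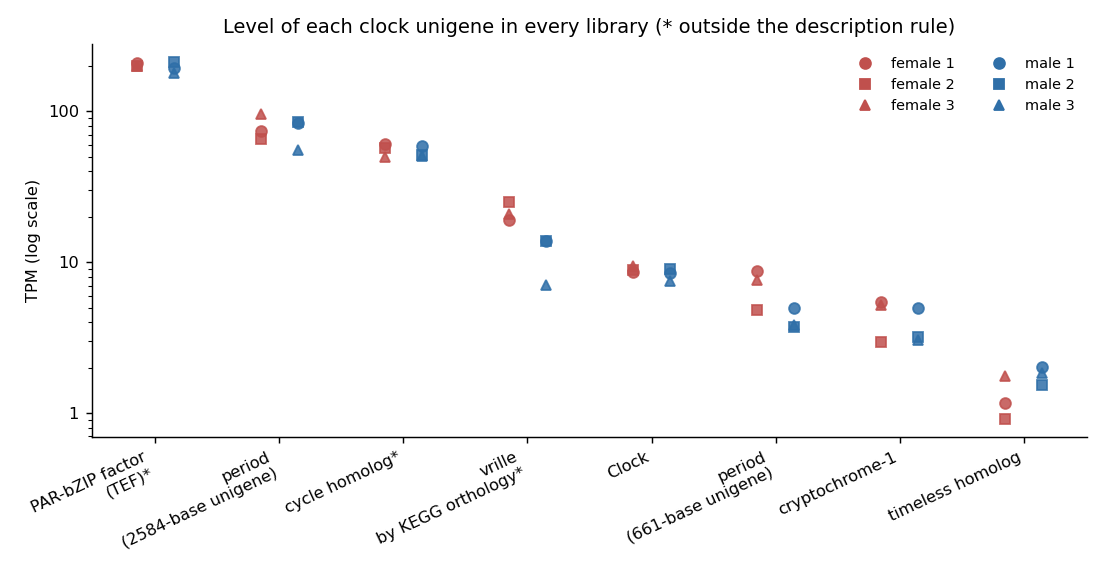
TPM of each clock unigene (log scale) in the 3 female (red, left) and 3 male (blue, right) libraries, ordered by mean, with an asterisk on the unigenes found outside the description rule. The PAR-bZIP factor (178 to 213 TPM) and the longer period unigene (55.3 to 95.9 TPM) stand above Clock (7.47 to 9.45 TPM), and the timeless homolog is lowest.

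None of the 5 clock unigenes passed the test between the sexes, where 2.8% of the 21196 unigenes tested did (1.69% higher and 1.11% lower in females), and all 5 had passed the filter on low counts. At an unadjusted p below 0.05 there was 1 of 5, the shorter period unigene, against 12% of all, and DESeq2's Wald test called 0 of 5, against 3.86% of all. In none of the 5 were the CPM of the 2 sexes without overlap, which held for 17.3% of the unigenes tested. The median log2 difference of the 5 was 0.01, and that of all tested unigenes was 0.00.

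Among the activators, Clock had 21.4, 22.5 and 23.4 CPM in the female libraries, against 22.6, 23.7 and 20.6 CPM in the male libraries. The 6 values lay close together and the sexes overlapped. The log2 difference was 0.01 (95% interval -0.21 to 0.23, edgeR adjusted p = 0.991), so that a fold of the sexes beyond 1.17 in either direction lay outside the interval. The spread of Clock among libraries of one sex, as edgeR's biological coefficient of variation, was 10% where the trend for its level was 12.8%. Its partner, the cycle homolog, had 157, 148 and 124 CPM in females, against 168, 139 and 138 CPM in males. The highest library was male 1 and the lowest female 3, the ranges overlapped, and the log2 difference was -0.05 (95% interval -0.29 to 0.18, edgeR adjusted p = 0.92).

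The longer period unigene, the main readout of the negative arm, had 87.3, 77.9 and 114 CPM in the female libraries, against 104, 104 and 68.9 CPM in the male libraries. The highest library was a female and the lowest a male, yet the female mean was 92.9 ± 18.5 CPM and the male mean 92.2 ± 20.2 CPM (SD, n = 3 each). The log2 difference was 0.01 (95% interval -0.37 to 0.39, edgeR adjusted p = 0.993), and it became -0.16 without female 3 or without male 3. Within a sex, period differed 1.46-fold between the highest and lowest female library and 1.51-fold between the male ones. Its coefficient of variation was 15.6%, 1.52 times the trend of 10.2% for its level, and 3.95% of all tested unigenes stood as far or farther above their trend. The spread within each sex was larger than the difference between the sexes, whose interval ran from 0.776-fold to 1.31-fold.

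**Figure D2:**
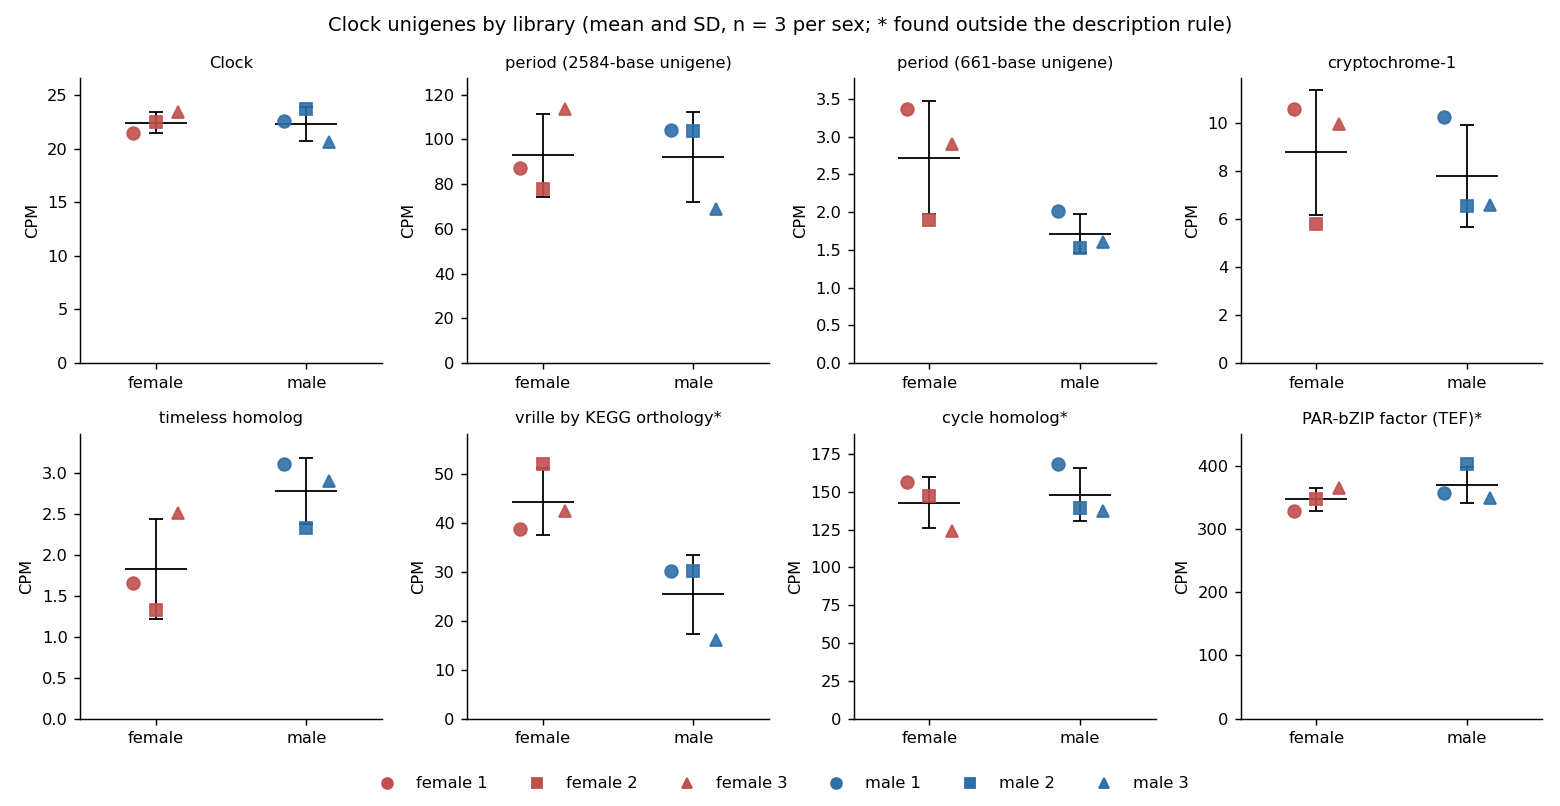
CPM of each clock unigene in the female (red, left) and male (blue, right) libraries, with the mean and SD of the 3 libraries of a sex as a black line and bars, and an asterisk on the unigenes found outside the description rule. Period spreads from 77.9 to 114 CPM in females and from 68.9 to 104 CPM in males, and Clock is level. Vrille is the one panel in which no male library reaches the lowest female one. A lack of overlap in either direction held for 17.3% of all unigenes tested.

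The shorter period unigene rested on few reads, 61, 36 and 58 counts in the female libraries, against 37, 27 and 30 counts in the male libraries. In CPM these were 3.37, 1.90 and 2.90 in females and 2.01, 1.53 and 1.61 in males. Female 1 and female 3 were above every male library, and female 2 was below male 1. The log2 difference was 0.66 (95% interval 0.05 to 1.28, unadjusted p = 0.0358, edgeR adjusted p = 0.361). With the counts of both period unigenes added together, the log2 difference was 0.03 (edgeR adjusted p = 0.978), close to the 0.01 of the longer unigene, and the shorter one held 1.45% to 3.71% of their joint counts.

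Cryptochrome-1 is a repressor or a light sensor according to its type, and the protein hit here was the mammalian mouse Cry1. It had 10.6, 5.80 and 9.96 CPM in the female libraries, against 10.3, 6.56 and 6.60 CPM in the male libraries. Female 1, female 3 and male 1 were high, the other three were low, and the sexes overlapped. The log2 difference was 0.17 (95% interval -0.39 to 0.73, edgeR adjusted p = 0.881). Its coefficient of variation of 22% was 1.31 times the trend of 16.8%, and 7.87% of tested unigenes stood as far above theirs. The related photolyases, DNA repair enzymes of the same family, had log2 differences of -0.15 and -0.08 in the 2 unigenes tested.

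The timeless homolog had 1.66, 1.32 and 2.50 CPM in the female libraries, against 3.10, 2.32 and 2.90 CPM in the male libraries, from 25 to 57 counts a library. Female 3 was above male 2, and the other female libraries were below every male one. The log2 difference was -0.60 (95% interval -1.22 to 0.02, unadjusted p = 0.0574, edgeR adjusted p = 0.441). The TIPIN homolog, the partner of TIMELESS at the replication fork in mammals, had a log2 difference of -0.12 (95% interval -0.32 to 0.07, edgeR adjusted p = 0.666).

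The unigene with the vrille orthology, in flies a repressor of Clk, had the largest absolute log2 difference among the 8 clock unigenes. It had 38.7, 51.9 and 42.5 CPM in the female libraries, against 30.1, 30.1 and 16.0 CPM in the male libraries. Every female library was above every male library, where 17.3% of all unigenes tested had no overlap in either direction, and male 3 stood lowest. The log2 difference was 0.81 (95% interval 0.34 to 1.27), a fold of 1.75, with 44.3 ± 6.82 CPM as the female mean and 25.4 ± 8.13 CPM as the male mean (SD, n = 3 each). It missed the threshold in edgeR (unadjusted p = 0.00313, adjusted p = 0.0844) and passed it in DESeq2's Wald test (adjusted p = 0.00117). In the authors' deposited table its log2 fold change is 0.81 with an FDR of 0.00342, and it is not marked significant there, a mark that all 355 unigenes with an FDR below 0.05 and an absolute log2 fold change of at least 1 carry. Without male 3 the log2 difference was 0.56 and the edgeR adjusted p 0.0482, and over the 6 libraries left out in turn the adjusted p ran to 0.332, the value without female 2. Its coefficient of variation of 18.7% was 1.64 times the trend for its level.

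The summed level of 7 neuronal marker unigenes was 215, 229 and 228 TPM in the female libraries, against 192, 203 and 174 TPM in the male libraries, so that female 2 was highest and male 3 lowest both in this sum and for vrille. Of the 7, 1 was higher in females by edgeR and 0 lower, beside 1.69% higher and 1.11% lower of all unigenes tested, and none of the 7 was at 0 in all libraries. The sum of 44 muscle unigenes was lower in females, with 14869 to 19927 TPM, against 20858 to 22834 TPM in males, and 5 of the 32 tested were lower by edgeR, beside 1.11% of all. Glial markers were at 1575 to 1589 TPM in females and 1525 to 1570 TPM in males with 0 of 10 called, and fat body markers overlapped at 6181 to 6915 TPM in females and 6131 to 6856 TPM in males, with 3 of 7 called, beside 2.8% of all. The part of these tissues in the vrille difference was not tested.

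The PAR-bZIP factor, of the family of the Clk activator Pdp1, had 329, 348 and 365 CPM in the female libraries, against 357, 402 and 349 CPM in the male libraries. The sexes overlapped, and the log2 difference was -0.09 (95% interval -0.27 to 0.09, edgeR adjusted p = 0.774). A second, lower unigene of the same description and assembly cluster, TRINITY_DN25608_c1_g2, had 4.64, 5.59 and 8.41 CPM in the female libraries, against 9.68, 13.4 and 5.42 CPM in the male libraries. Male 1 and male 2 were above every female library and male 3 was below female 2, with a log2 difference of -0.61 (95% interval -1.30 to 0.09, edgeR adjusted p = 0.514). These unigenes are annotated as genes that Clock and cycle activate in flies, or as relatives of them. Neither PAR-bZIP unigene is shown to be Pdp1, and vrille is named by its KEGG orthology. Vrille was 1.75-fold apart between the sexes at an edgeR adjusted p of 0.0844. The intervals of the longer period unigene and of both PAR-bZIP unigenes covered 0, and that of the shorter period unigene did not. Whether vrille differs from these by more than the spread was not tested.

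**Figure D3:**
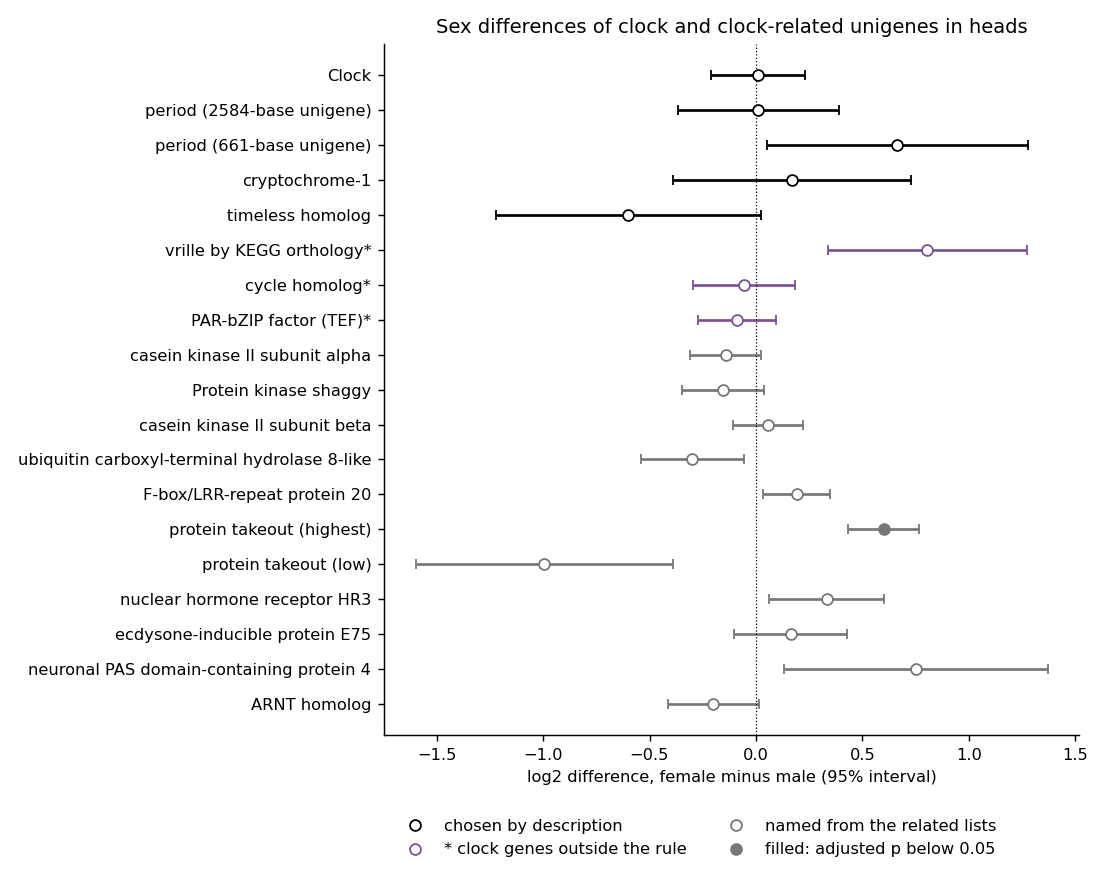
Log2 difference of females minus males with its 95% interval (x axis) for the 5 clock unigenes (black), the 3 clock genes found outside the rule (purple, asterisk) and the genes named from the related lists (grey); a filled point has an edgeR adjusted p below 0.05. The abundant takeout unigene is the only filled point, at 0.60, and vrille lies at 0.81 with an interval of 0.34 to 1.27.

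The libraries were also set side by side, since clock RNAs move with the hour and no hour was given. Taken as deviations from the mean of the 6 libraries in log2 CPM, period ran between -0.40 in male 3 and 0.32 in female 3, whereas Clock stayed between -0.12 and 0.08. Vrille ran between -1.03 in male 3 and 0.66 in female 2, so that both period and vrille were lowest in male 3 but their highest libraries differed. Male 3 was also lowest for the nuclear receptors E75 (57.8 CPM) and HR3 (16.75 CPM), and highest for casein kinase II subunit beta (211 CPM). Whether the low values of male 3 go with the hour or with another trait of that library was not tested. Female 2 was the highest library for vrille and below the mean for period, cryptochrome-1 and the timeless homolog. The difference of period minus Clock, an arm driven by Clock and cycle against its driver, was 0.00, -0.24 and 0.25 in females, against 0.17, 0.10 and -0.29 in males. The sexes overlapped throughout and their means differed by 0.01, with an SD of 0.24 in females and 0.25 in males. With vrille and the PAR-bZIP factor added to period, and the cycle homolog added to Clock, the values were -0.01, 0.11 and 0.32 in females, against -0.10, 0.06 and -0.39 in males. The means differed by 0.28 and the ranges overlapped. Of the added unigenes, vrille had a log2 difference of 0.81, the PAR-bZIP factor of -0.09 and the cycle homolog of -0.05. The 0.28 thus mostly restates vrille, which was added after its values had been seen.

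**Figure D4:**
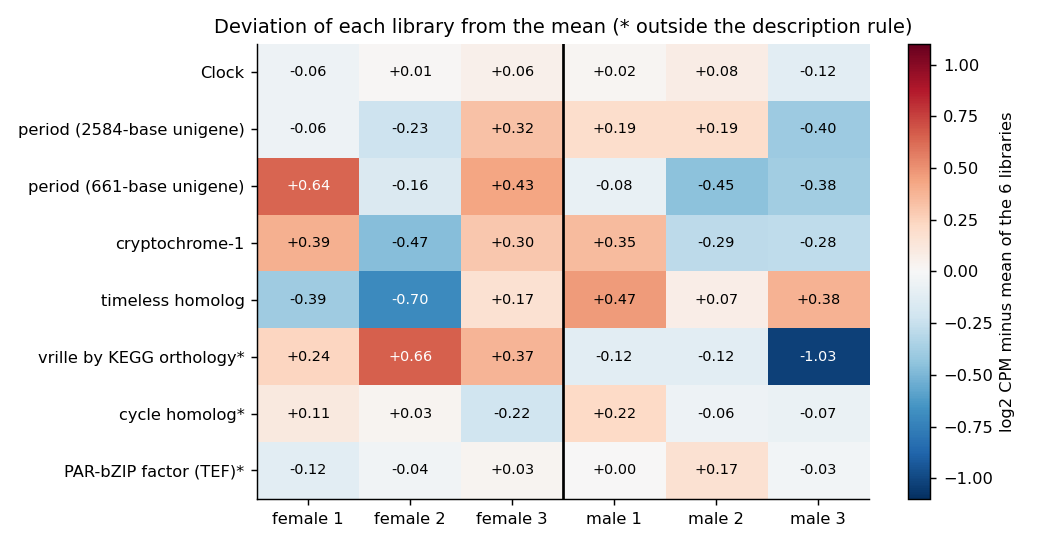
Deviation of each library (columns, females left of the line) from the mean of the 6 libraries in log2 CPM, for each clock unigene (rows, an asterisk on those found outside the rule), with red above and blue below the mean. Male 3 is at -0.40 for period and -1.03 for vrille, and Clock stays between -0.12 and 0.08.

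The likeness of other genes to period was measured as the root mean square distance of these deviations over the 6 libraries, where period's own deviation was 0.25. Among 7823 tested unigenes with an informative description of a non-vertebrate hit, the nearest were odorant receptor 30a (TRINITY_DN25757_c3_g3) at 0.08, and the U1 small nuclear ribonucleoprotein of 70 kDa (TRINITY_DN26140_c7_g1) and a zinc finger protein (TRINITY_DN26652_c1_g7), both at 0.09. Among the clock unigenes, Clock was at 0.20, the PAR-bZIP factor at 0.22, cryptochrome-1 at 0.30, the cycle homolog at 0.30, the shorter period unigene at 0.41, the timeless homolog at 0.42 and vrille at 0.49. Every other clock unigene was farther from period than these 3, but the 3 were picked as the nearest of 7823, so that this order partly follows from the choice. Moreover, 6 points are few, and this likeness is a description only.

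**Figure D5:**
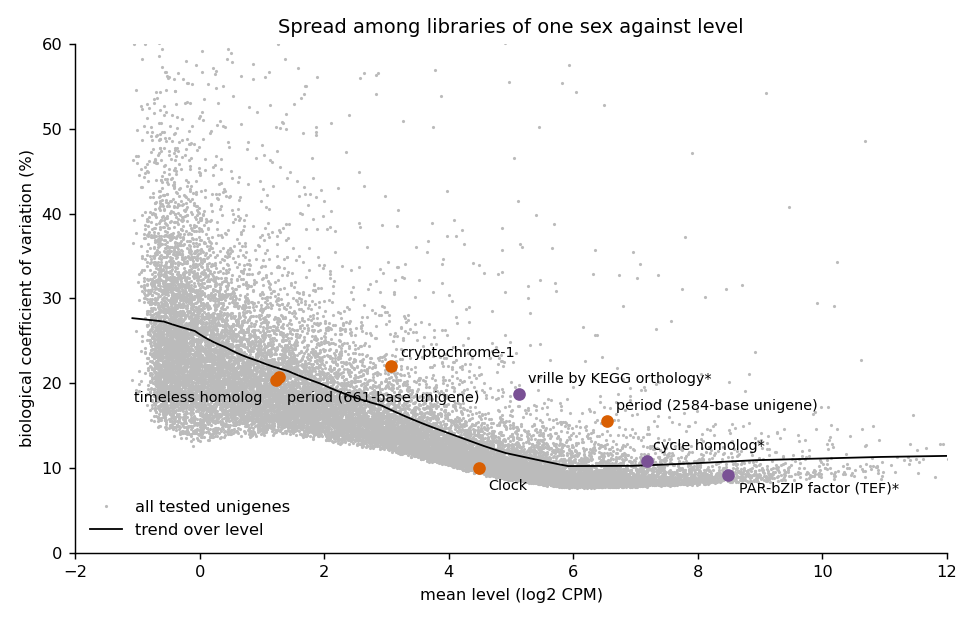
Biological coefficient of variation in percent (y axis) against the mean level in log2 CPM (x axis) for all tested unigenes (grey; 90 lie outside the axes), the trend (line), the 5 clock unigenes (orange) and the 3 found outside the rule (purple). Period at 15.6%, vrille at 18.7% and cryptochrome-1 at 22% lie above the trend, and Clock at 10% lies below it.

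The enzymes that set the pace of the clock by modifying period did not pass the test. Kinases and phosphatases of the clock, such as the casein kinases and shaggy, which phosphorylate clock proteins in flies, gave 0 of 13 tested past the threshold, beside 2.8% of all. At an unadjusted p below 0.05 there were 0 of 13, beside 12% of all. Their log2 differences ran from -0.16 to 0.11, with a median of -0.04. Casein kinase II subunit alpha had 63.7, 60.2 and 60.1 CPM in females, against 63.7, 72.0 and 67.3 CPM in males, with a log2 difference of -0.14 (edgeR adjusted p = 0.531). Shaggy had a log2 difference of -0.16 (edgeR adjusted p = 0.56), and the abundant casein kinase II subunit beta, at 230 TPM, of 0.05. Of 11 ubiquitin ligase components and related enzymes tested, which in flies and mammals include those that mark clock proteins for breakdown, 0 passed, beside 2.8% of all, and 2 had an unadjusted p below 0.05, beside 12% of all. These were a ubiquitin carboxyl-terminal hydrolase 8-like unigene at -0.30 (edgeR adjusted p = 0.264) and F-box/LRR-repeat protein 20 at 0.19 (edgeR adjusted p = 0.278). Beta-TrCP, which in flies as slimb binds phosphorylated period, had a log2 difference of -0.09 (edgeR adjusted p = 0.79).

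A list of clock outputs and clock neuron signalling held takeout, peptides and their receptors, ion channels, neurofibromin, quiver and lark. Of its 14 unigenes tested, 3 had an unadjusted p below 0.05, beside 12% of all. Only 1 passed the threshold, and it was higher in females, as were 1.69% of all tested. This was the abundant takeout unigene TRINITY_DN26691_c0_g8, of a family of carrier-like proteins of which the founding fly gene is under clock control and linked to feeding and male courtship. It had 981, 1057 and 1034 CPM in the female libraries, against 675, 692 and 661 CPM in the male libraries. The sexes were far apart against the spread within each, with a log2 difference of 0.60 (95% interval 0.43 to 0.76, edgeR adjusted p = 0.00126). A low takeout unigene, TRINITY_DN7336_c0_g1, had 2.15, 2.69 and 2.50 CPM in females, against 5.11, 6.45 and 3.11 CPM in males. The CPM of the sexes did not overlap, which held for 17.3% of all unigenes tested. This unigene had a log2 difference of -0.99 and an edgeR adjusted p of 0.103. It passed in DESeq2's Wald test (adjusted p = 0.0343) and in edgeR without male 3 (adjusted p = 0.0193). A further takeout unigene, at 188 TPM, had a log2 difference of 0.01. Whether the authors' counting shared reads among the takeout unigenes was not tested.

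The peptide signal of the clock neurons did not pass the test. Pigment-dispersing hormone, the peptide by which clock neurons of insects keep in step, averaged 76.1 TPM in females and 78.6 TPM in males, with a log2 difference of -0.14 (95% interval -0.38 to 0.10, edgeR adjusted p = 0.705), although its CPM did not overlap between the sexes. Its receptor-like unigene, at 102 TPM in females and 103 TPM in males, had a log2 difference of -0.09 (edgeR adjusted p = 0.796). The nuclear receptors E75, which is tied to period in fly clock neurons, and HR3 gave 0 of 2 past the threshold, beside 2.8% of all unigenes tested. Their log2 differences were 0.16 for E75 (edgeR adjusted p = 0.695) and 0.33 for HR3 (95% interval 0.06 to 0.60, unadjusted p = 0.021, edgeR adjusted p = 0.27). HR3 was the 1 of 2 at an unadjusted p below 0.05, beside 12% of all. Its CPM did not overlap between the sexes, which held for 17.3% of all. A list of relatives of Clock, cycle and Pdp1 also held the TIPIN homolog and photolyases. It counted the cycle homolog and both PAR-bZIP unigenes again. Of its 13 unigenes tested, 0 passed, beside 2.8% of all, and 1 had an unadjusted p below 0.05, beside 12% of all. This 1 was neuronal PAS domain-containing protein 4 at 0.75 (95% interval 0.13 to 1.37, edgeR adjusted p = 0.276). The translocator ARNT, a partner of many PAS proteins, was at -0.20 (edgeR adjusted p = 0.457).

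The fly circadian rhythm pathway of KEGG, taken as a list after the table was seen, held 7 unigenes, which are Clock, the longer period unigene, the cycle homolog, vrille, the PAR-bZIP factor, shaggy and casein kinase I delta. In edgeR 0 of 7 passed, beside 2.8% of all unigenes tested. Only 1, vrille, had an unadjusted p below 0.05, beside 12% of all. The median log2 difference was 0.01, beside 0.00 for all tested unigenes.

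The 5 matching unigenes with a vertebrate hit were short and thinly covered, with at most 16 counts in any library and lengths of 259 to 700 bases. They were 2 timeless homologs, 1 timeless interacting protein, 1 period homolog and 1 cryptochrome-1. Vertebrate hits took 3.13% to 3.72% of all counts in a library, and these 5 were not read as wasp clock genes. The cryptochrome-1 row with a chicken hit belongs to the same assembly cluster as the wasp cryptochrome-1 and had 3 to 8 counts.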

How the data were processed

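Paired-end reads of poly(A) libraries came from an Illumina NovaSeq after Trizol extraction, per the labels' protocols. Cutadapt trimmed them and Trinity 2.4.0 assembled them, with the longest transcript of a cluster as the unigene. The authors' read counter and test are unnamed, not given in the sources used here. No genome was used. Per the file headers, the authors deposited expected counts and TPM per unigene and library. Between 8.81% and 9.5% of the expected counts in a library were not whole, and they were rounded. The authors' deposited log2 fold change, p-value and FDR were only set beside the values computed here. All sample columns matched a library, with 0 left over. Species were read from the bracket in each description.

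Unigenes were kept by edgeR's filterByExpr (minimum count 10, minimum total 15), scaled by TMM, and fitted with edgeR's quasi-likelihood test (edgeR 4.0.16, limma 3.58.1, R 4.3.3), with Benjamini-Hochberg adjustment at 0.05 and 95% intervals. DESeq2 1.42.0 was an alternative. Other alternatives were DESeq2 size factors, no filter, a filter of 50 counts in 3 libraries, each library left out, a replicate block, no vertebrate hits, counts summed by description, and an absolute log2 difference of at least 1. On simulated data of 20418 unigenes for this comparison, the test recovered 68.1% of changes of 1 log2 unit and 99.1% of those of 2, with 18 false calls among 187. Changes were planted only in unigenes above a minimum mean count, so that recovery below it was not measured. The common biological coefficient of variation was 14.5%.

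Members and lists were chosen with earlier results of these data known. Named were every member, in each list the unigenes with the 2 smallest p and the highest mean TPM, and the 3 nearest to period. Cycle, vrille, both PAR-bZIP unigenes, photolyases, TIPIN, beta-TrCP, the further takeout unigene, pigment-dispersing hormone and its receptor were named outside that rule after their values were seen. Python 3, numpy, pandas and matplotlib made the summaries and plots. Intervals of shares of counts are exact Clopper-Pearson ones and cover counting error only.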

Additional observations from a re-analysis of the deposited data

How the results depend on the processing

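No clock unigene tested passed under the 14 alternatives, of which the stricter filter and the summing by description each tested 4 (the shorter period unigene was filtered out or merged), and depth limits the shorter period unigene and the timeless homolog, at 61 counts a library or fewer. The direction of the smallest differences depended on a library. Leaving out each in turn moved Clock between -0.042 and 0.052, the longer period unigene between -0.16 and 0.129, and the cycle homolog between -0.124 and 0.044. Period minus Clock moved between -0.132 and 0.13, and was 0.283 with vrille, the PAR-bZIP factor and the cycle homolog added, mostly through vrille. The alternatives on vrille, the fly KEGG pathway and the other named unigenes were chosen after seeing the data. Vrille had 0.805 by DESeq2's Wald test (adjusted p = 0.00117) and ran between 0.564 and 0.945 over libraries left out, where the call was made without male 3. The fly KEGG pathway counted 1 of 7 in DESeq2, where 3.86% of all unigenes tested passed. It counted 1 in the block fit, where 576 of 21196 unigenes passed. Over libraries left out it counted 0 to 1, and the 1 came without male 3, where 578 of 22741 passed. The call was vrille in each of these fits. The list of clock outputs and clock neuron signalling counted 2 of 14 in DESeq2, beside the same 3.86% of all. It counted 1 to 2 over libraries left out and 0 at an absolute log2 difference of at least 1. The low takeout unigene turned to 0.522 when summed by description with the abundant one, whose counts then dominate. Over all unigenes 593 passed, 271 at the fold limit, and 357 to 688 over libraries left out; the cause was not tested. Replicate numbers did not pair the libraries, since same-numbered ones had correlations of -0.019, -0.07 and -0.009 of their deviations. With the replicate block 576 passed, and vrille had 0.844 (edgeR adjusted p = 0.0384). The alternative on TPM with limma was not run, since counts were available.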

Other observations

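The shorter period unigene was set against the joint period counts, a ratio chosen after the values were seen. Its share was 3.71% (95% exact interval 2.85 to 4.75), 2.38% (1.67 to 3.28) and 2.49% (1.90 to 3.21) in the female libraries, against 1.90% (1.34 to 2.61), 1.45% (0.958 to 2.10) and 2.28% (1.55 to 3.24) in the male libraries. The shares of the sexes did not overlap, but the counting intervals did in 7 of 9 pairs of a female and a male library. The means were 2.86% ± 0.74 in females and 1.88% ± 0.42 in males (SD, n = 3 each), with no test, since the ratio was picked for this pattern.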
